A study of Mus musculus with 8 samples.

Results

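Collagen chain genes encode the rod-shaped proteins that make up most of the organic matrix of bone. The 43 collagen chain genes described here were chosen by name from the 49315 gene IDs of the deposited count table as the genes encoding the chains of collagen types I to XVIII, XX and XXII to XXVIII, and were matched through their GENCODE M21 symbols. They comprise 11 fibrillar chains, 9 network-forming chains, 6 chains of the beaded filament collagen VI, 8 fibril-associated chains (FACIT), 4 membrane-spanning chains, 2 multiplexins and 3 others. Bulk RNA sequencing had been carried out on femoral shaft bone of 8 male mice of strain C57BL6 aged 24 weeks, of which 4 were wild type (WT) and 4 carried a deletion of Girk3 (Girk3-/-, KO). The bone ends had been cut away and the marrow flushed out with saline. The labels do not state which part of the gene was deleted, in which cells, or whether the WT mice were littermates, and each library was taken as 1 mouse.

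Collagen chains wind around each other in a triple helix, in which a glycine recurs at a fixed spacing. Osteoblasts secrete type I procollagen, whose ends are clipped so that the molecules assemble into fibrils that then mineralise. Types V and XI regulate the width of those fibrils, FACIT collagens sit on their surface, type IV forms the network of basement membranes, and type VI forms beaded filaments around cells of muscle, tendon and other connective tissue. In a bulk sample, fewer cells of a type and less RNA per cell cannot be told apart.

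The libraries held 30087749 to 36553713 counts. The unit of level is CPM, a count divided by the TMM-scaled library size, and levels of different genes were compared only as CPM per kilobase of the longest protein-coding transcript. WT replicate 4 and KO replicate 4 lay at opposite ends of the first principal component (53.5 and -60.5, with 33.5% of the variance), and results that moved without them are given both ways. The summed CPM of 12 skeletal muscle markers was 68962 in WT replicate 4 and 181833 in KO replicate 4, against 107578 to 137595 in the other 6 libraries. Markers of marrow cells were still present and varied as well. The 7 neutrophil markers summed to 5255 CPM in WT replicate 4 and 756 CPM in KO replicate 4, against 1506 to 7136 CPM elsewhere. The 6 erythroid markers summed to 11317 CPM and 5440 CPM in these 2 libraries, against 3544 to 8732 CPM elsewhere. Osteoblast and osteocyte markers were present in every library, at a summed 724 to 1375 CPM over 11 genes. Kcnj9, which encodes Girk3, had 6 to 23 counts in the WT libraries and 0 to 8 in the KO libraries, too few to check the genotypes.

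No collagen chain gene passed the test of KO against WT. With edgeR's quasi-likelihood test and Benjamini-Hochberg adjustment over 17450 genes, 0 of the 40 chains that passed the low-count filter were called at an adjusted p of 0.05, beside 0.0115% of all genes. At an unadjusted p under 0.05 there were 5 chains lower in KO (12.5% of the 40, against 8.59% of all genes) and 1 higher (2.5%, against 9.59%), together 15% of the 40 against 18.2% of all genes. The 5 lower chains were Col6a1, Col6a2 and Col6a3 of collagen VI, the membrane-spanning Col25a1 and the FACIT chain Col12a1, and the higher one was Col9a1, a FACIT chain of cartilage. Every KO library lay below every WT library for 3 chains (7.5%, against 5.78% of all genes), namely Col6a1, Col6a2 and Col25a1, and for no chain did every KO library lie above every WT library (7.33% of all genes). DESeq2 called 2 chains (Col6a1 and Col25a1, beside 6.45% of all genes) and limma-voom with sample quality weights called 3 (Col6a1, Col6a2 and Col6a3, beside 4.02% of all genes). The 3 chains that did not pass the filter were Col4a6, Col10a1 and Col17a1, at no more than 21 counts in any library.

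Of the 40 tested chains, 30 had a negative log2 fold change and 10 a positive one, against 51.4% of all genes below 0. Their median was -0.21, against -0.01 over all genes. The fit without a filter gave 31 of 43 below 0 and a median of -0.21. The median of the tested chains was -0.13 without WT replicate 1, the highest library for 19 of the 33 chains with at least 20 counts everywhere, and -0.15 without KO replicate 3, the lowest library for 14 of them. Collagen genes are long, counted in bases of all annotated exons. Fold changes went with that length across the transcriptome (Spearman rho -0.33 over 17414 genes), and less so across the 40 tested chains (rho -0.13). The tested chains had a median of 7727 exonic bases against 3856 for all tested genes, and 32 of the 40 lay in the 3 longest deciles of genes by exon length. In those deciles 71.0% of all genes had a negative log2 fold change, with a median of -0.14. Compared each with the median of its own decile, 24 chains lay below and 16 above. With a fitted exon length trend taken out library by library, 25 chains were below 0 and the median was -0.08 (0.03 over all genes). With GC content included as well, 20 were below and 20 above 0 with a median of -0.00027 (0.033 over all genes). The transcripts of the tested chains had a median GC content of 55.4% against 49.6% for all tested genes.

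**Figure D1:**
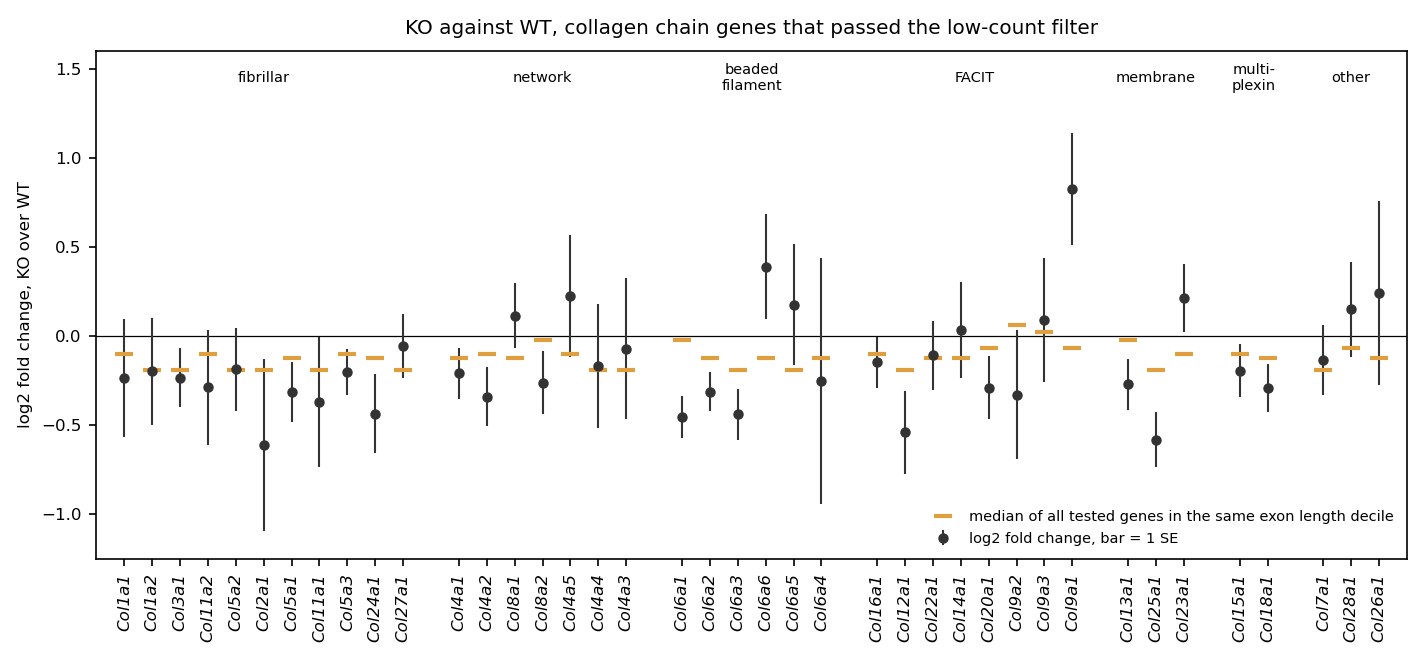
Log2 fold change of KO over WT for the 40 collagen chain genes that passed the low-count filter, grouped by class, with bars of 1 standard error from edgeR; the horizontal ticks mark the median of all tested genes in the same decile of exon length. All 11 fibrillar chains lie below 0 (7 with the exon length and GC trend removed). By more than 1 standard error, 13 of the 40 chains lie below their ticks and 5 above, and the share over all genes was not counted. The 13 include Col6a1, Col6a2, Col6a3, Col25a1 and Col12a1, which were picked from these same values by an unadjusted p under 0.05.

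All 11 fibrillar chains were below 0 in log2 fold change (median -0.24), with 0 at an unadjusted p under 0.05, and 7 of the 11 stayed below 0 with the length and GC trend removed. Type I collagen took most of the family's counts, and its level varied widely among mice of the same genotype. Col1a1 and Col1a2, which encode the chains of type I collagen, together took 69.9% to 82.4% of all collagen counts in a library. Col1a1 (chromosome 11, 94936224 to 94953042, GRCm38) was at 11983, 9016, 4411 and 7095 CPM in WT replicates 1 to 4 and 7084, 9546, 5848 and 5119.7 CPM in KO replicates 1 to 4. WT replicate 1 was the highest and WT replicate 3 the lowest of all 8, so the KO libraries lay wholly inside the WT range. The group means were 8126 ± 3190.2 CPM over the 4 WT mice and 6899 ± 1942 CPM over the 4 KO mice (± SD), a log2 fold change of -0.24 ± 0.33 (SE) with an adjusted p of 0.758 by edgeR. Col1a2 was at 9049, 6889, 3962 and 7073 CPM in WT replicates 1 to 4 and 6400.0, 7896, 4883 and 4343 CPM in KO replicates 1 to 4 and had the same highest and lowest libraries. Col1a2 had a log2 fold change of -0.20 ± 0.30 (SE) with an adjusted p of 0.779 by edgeR. Per kilobase, Col1a1 was at 1370.4 ± 538 CPM per kb in WT and 1163 ± 327 in KO and Col1a2 at 1261 ± 392 CPM per kb in WT and 1099.5 ± 299 in KO, followed by Col3a1 at 195 ± 26.2 CPM per kb in WT and 165 ± 14.0 in KO.

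Among the other fibrillar chains, Col2a1, Col11a1, Col11a2, Col5a1 and Col5a2 had the same highest and lowest WT library as type I, whereas Col3a1 did not. Col2a1, the chain of cartilage fibrils and named here after its values were seen, was at 288, 238, 43.5 and 190.4 CPM in WT replicates 1 to 4 and 142, 184, 99.4 and 72.1 CPM in KO replicates 1 to 4. Its span from WT replicate 3 to WT replicate 1 was 6.62-fold, and the KO libraries again lay within the WT range. Col2a1 had a log2 fold change of -0.61 ± 0.48 (SE) with an adjusted p of 0.550 by edgeR. Col11a1 and Col11a2 encode chains of type XI, which forms the core of thin fibrils. Col11a1 was at 320.3, 244, 90.4 and 184 CPM in WT replicates 1 to 4 and 187, 224, 144 and 95.0 CPM in KO replicates 1 to 4, and Col11a2 at 629, 474, 236 and 496 CPM in WT replicates 1 to 4 and 395, 555, 314 and 238 CPM in KO replicates 1 to 4. Both were highest in WT replicate 1 and lowest in WT replicate 3, with log2 fold changes of -0.37 and -0.29 (edgeR adjusted p = 0.650 and 0.693).

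Type V collagen, which limits the growth of type I fibrils, had means slightly lower in KO with overlapping groups. Col5a1 was at 252, 242, 199 and 229 CPM in WT replicates 1 to 4 and 184, 243, 160.2 and 154 CPM in KO replicates 1 to 4. Col5a1 had a log2 fold change of -0.31 ± 0.17 (SE) with an adjusted p of 0.361 by edgeR. Col5a2 was at 403, 334, 209 and 279 CPM in WT replicates 1 to 4 and 290.3, 341, 249.7 and 195 CPM in KO replicates 1 to 4. Col5a2 had a log2 fold change of -0.19 ± 0.23 (SE) with an adjusted p of 0.725 by edgeR. KO replicates 3 and 4 were the lowest 2 libraries for Col5a1, while WT replicate 3 and KO replicate 4 were the lowest for Col5a2. Col3a1, a fibrillar chain of skin, vessels and periosteum, was at 949, 1139.8, 1262 and 980.4 CPM in WT replicates 1 to 4 and 978, 985, 819.6 and 899 CPM in KO replicates 1 to 4. Here WT replicate 3 was the highest library, the opposite of its place for type I, and the group means were 1083 ± 146 CPM over the 4 WT mice and 920.5 ± 77.8 CPM over the 4 KO mice (± SD). Col3a1 had a log2 fold change of -0.23 ± 0.17 (SE) with an adjusted p of 0.498 by edgeR. Col24a1, a minor fibrillar chain of bone that was also named after its values were seen, was at 46.8, 31.8, 36.6 and 37.1 CPM in WT replicates 1 to 4 and 23.6, 23.4, 22.3 and 43.4 CPM in KO replicates 1 to 4. KO replicates 1 to 3 lay below all WT libraries and KO replicate 4 stood among the WT libraries. Col24a1 had a log2 fold change of -0.44 ± 0.22 (SE) with an adjusted p of 0.335 by edgeR. Without WT replicate 4 and KO replicate 4 the log2 fold change of Col24a1 was -0.73 (SE 0.15, edgeR adjusted p = 0.0391), in a fit that called 2.62% of all genes. Col5a3 and Col27a1 had log2 fold changes of -0.20 and -0.05.

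**Figure D2:**
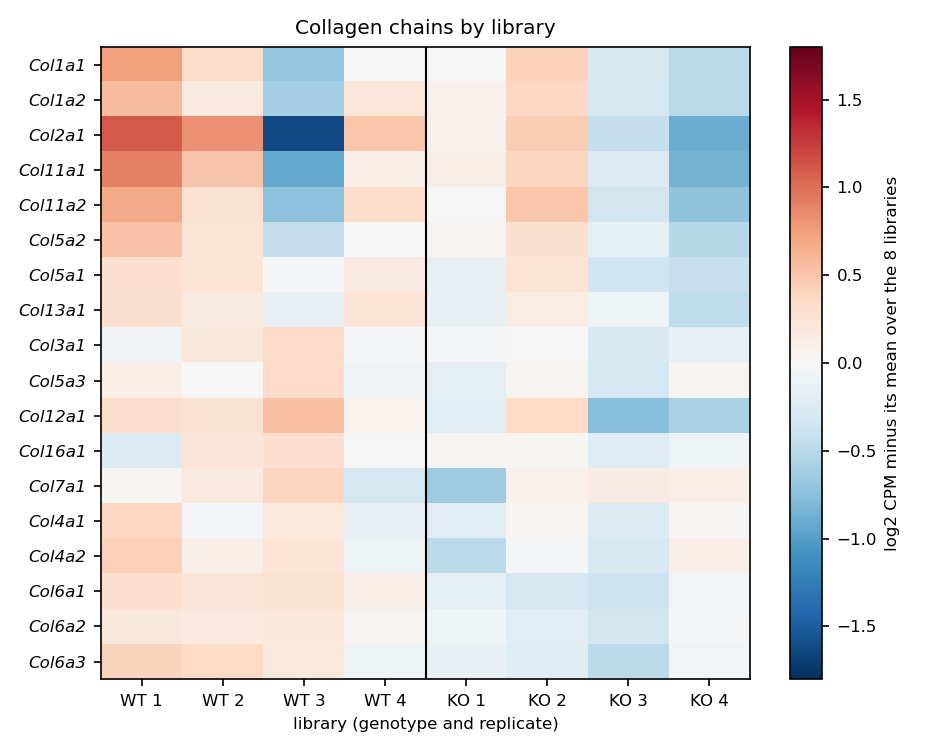
Log2 CPM of 18 collagen chain genes (rows, ordered after their values were seen) in the 8 libraries (columns), each as the difference from its mean over the libraries; red is above and blue below that mean. WT 1 and KO 2 are high and WT 3 and KO 4 low for types I, II and XI, while Col6a1 and Col6a2 are above their mean in all 4 WT libraries and below it in all 4 KO libraries.

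The library pattern of the type I group ran beside that of osteoblast and osteocyte markers at its low end only. The 11 markers summed to 1092, 1027, 794 and 1279 CPM in WT replicates 1 to 4 and to 1375, 1084, 956 and 724 CPM in KO replicates 1 to 4, so that WT replicate 3 and KO replicate 4 were lowest in their groups for the markers and for type I alike, while the highest libraries differed. Of the 11 markers 8 were below 0 in log2 fold change (72.7%, against 51.4% of all genes). The 11 lay in length deciles 1 to 8, and 9 of them were below the median of their own decile. Among the 11 markers 1 had an unadjusted p under 0.05 (9.09% of the 11, against 18.2% of all genes) and 0 were called. Bglap, Bglap2 and Pdpn were above 0, at 0.37, 0.27 and 0.04. Bglap, Bglap2 and Ibsp had the largest mean CPM of the 11 and so weigh most on the sum. The part of these cells in the result was not tested. Of 8 cartilage markers 4 passed the filter, 3 of them below 0 in log2 fold change (75%, against 51.4% of all genes). Of these 4, 2 (Acan and Hapln1) were lower in KO at an unadjusted p under 0.05 in edgeR and 0 were called. That is 50% of only 4 genes, against 18.2% of all genes in either direction. The 4 lay in length deciles 4 to 9, and 3 were below the median of their own decile. The 8 markers summed to 98.9 to 133 CPM in WT and 73.5 to 151 CPM in KO. Comp, which tendon also expresses, made up most of that sum at 94.4 ± 14.8 CPM over the 4 WT mice and 93.3 ± 32.1 CPM over the 4 KO mice (± SD), and Sox9 averaged 5.15 ± 0.514 CPM over the 4 WT mice and 6.71 ± 2.83 CPM over the 4 KO mice (± SD). Hapln1 averaged 2.82 ± 0.191 CPM over the 4 WT mice and 1.76 ± 0.743 CPM over the 4 KO mice (± SD). Matn1, Matn3, Cnmd and Ucma, which did not pass the filter, were near 0, as for Matn1, which averaged 0.00844 ± 0.0169 CPM over the 4 WT mice and 0.0332 ± 0.0258 CPM over the 4 KO mice (± SD), and Matn3 averaged 0.180 ± 0.106 CPM over the 4 WT mice and 0.296 ± 0.246 CPM over the 4 KO mice (± SD). Hypertrophic cartilage's Col10a1 was at 0 to 11 counts in every library. Acan, the main cartilage proteoglycan, averaged 9.90 ± 1.72 CPM over the 4 WT mice and 6.17 ± 1.99 CPM over the 4 KO mice (± SD), with every KO library below every WT library. Acan had a log2 fold change of -0.68 ± 0.24 (SE) with an adjusted p of 0.184 by edgeR.

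**Figure D3:**
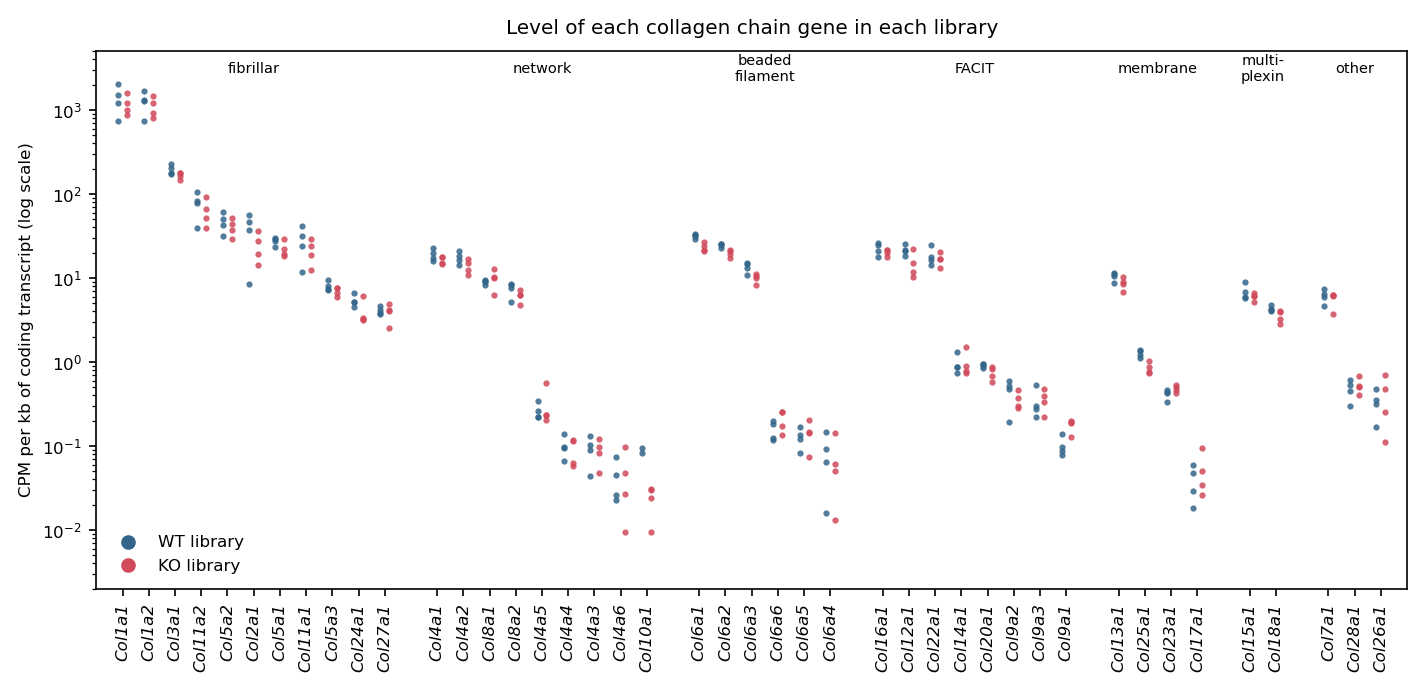
CPM per kilobase of the longest coding transcript (log axis) of all 43 collagen chain genes in the 4 WT and 4 KO libraries, by class and by falling level within a class; 1 point is 1 library, and the 2 WT libraries without a count for Col10a1 are not drawn. Col1a1 and Col1a2 stand above all other chains in every library, and the chains Col4a3 to Col4a6, Col6a4 to Col6a6 and Col9a1 to Col9a3 stay below 1 in every library.

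Network-forming collagens were represented by types IV and VIII. Col4a1 and Col4a2, the chains of the common basement membrane network, are transcribed away from each other on chromosome 8, and the annotated exons of the pair share 22 bases. Col4a1 was at 150.2, 113, 131 and 105 CPM in WT replicates 1 to 4 and 101, 118, 97.4 and 117 CPM in KO replicates 1 to 4. Col4a1 had a log2 fold change of -0.21 ± 0.14 (SE) with an adjusted p of 0.480 by edgeR. Col4a2 was at 134, 107, 118 and 93.1 CPM in WT replicates 1 to 4 and 70.9, 96.6, 80.9 and 108 CPM in KO replicates 1 to 4. Col4a2 had a log2 fold change of -0.34 ± 0.16 (SE) with an adjusted p of 0.308 by edgeR. The groups overlapped for both, KO replicate 1 being the lowest library for Col4a2 only. The chains of specialised basement membranes were near the limit of detection, with Col4a3, Col4a4 and Col4a5 at 13 to 96 counts per library. Col4a5 was at 2.23, 1.47, 1.72 and 1.44 CPM in WT replicates 1 to 4 and 1.54, 1.53, 1.35 and 3.64 CPM in KO replicates 1 to 4, and the mean of its KO group rested on KO replicate 4 (log2 fold change 0.23 with it and -0.21 without it). Type VIII forms lattices beneath endothelium. Col8a1 was at 47.6, 48.4, 42.4 and 45.6 CPM in WT replicates 1 to 4 and 64.6, 51.8, 51.3 and 31.7 CPM in KO replicates 1 to 4. Col8a1 had a log2 fold change of 0.12 ± 0.18 (SE) with an adjusted p of 0.792 by edgeR. Col8a2 was at 36.7, 35.6, 32.9 and 22.2 CPM in WT replicates 1 to 4 and 31.2, 27.0, 27.4 and 20.5 CPM in KO replicates 1 to 4. Col8a2 had a log2 fold change of -0.26 ± 0.18 (SE) with an adjusted p of 0.483 by edgeR. Both were lowest in KO replicate 4. The 6 endothelial markers summed to 409 to 472 CPM in WT and 385 to 508 CPM in KO, overlapping ranges.

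The beaded filament chains Col6a1, Col6a2 and Col6a3 made up 3 of the 6 members with an unadjusted p under 0.05, and Col6a1 had the lowest p of all members. Col6a1 (chromosome 10, 76708792 to 76726168, minus strand, GRCm38) was at 138, 131, 135 and 121 CPM in WT replicates 1 to 4 and 99.1, 89.4, 86.0 and 108 CPM in KO replicates 1 to 4. Every KO library lay below every WT library, with means of 131 ± 7.36 CPM over the 4 WT mice and 95.7 ± 10.1 CPM over the 4 KO mice (± SD) and a log2 fold change of -0.45 ± 0.12 (SE) with an adjusted p of 0.102 by edgeR, a difference of -26.9%. Col6a2, its neighbour 85.2 kb away on the same strand, was at 118, 115, 117 and 106 CPM in WT replicates 1 to 4 and 96.9, 89.7, 81.4 and 100.4 CPM in KO replicates 1 to 4. Its groups were also separate. Col6a2 had a log2 fold change of -0.31 ± 0.11 (SE) with an adjusted p of 0.186 by edgeR. Col6a3, on chromosome 1, was at 153, 149, 132 and 111 CPM in WT replicates 1 to 4 and 106, 100, 83.5 and 112 CPM in KO replicates 1 to 4. Col6a3 had a log2 fold change of -0.44 ± 0.15 (SE) with an adjusted p of 0.160 by edgeR. WT replicate 4 lay below KO replicate 4 for Col6a3, which joined the groups.

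The calls on collagen VI depended on the method, and the log2 fold changes were smaller in size with the length and GC trend removed. The fits that called these chains were not run with that trend removed. Without WT replicate 4 and KO replicate 4, edgeR gave adjusted p values of 0.0391 for Col6a1, 0.0785 for Col6a2 and 0.0478 for Col6a3, and with a muscle marker score as a covariate 0.0294, 0.0636 and 0.0402, in fits that called 2.62% and 4.69% of all genes. With the length and GC trend removed, the log2 fold changes were -0.35 (SE 0.12, adjusted p = 0.248), -0.09 (SE 0.12, adjusted p = 0.784) and -0.16 (SE 0.13, adjusted p = 0.645) in edgeR. Over all annotated exons Col6a1 has 4380 bases, and the decile of genes of its length had a median log2 fold change of -0.02. Col6a2 and Col6a3, at 8326 and 11963 bases, lay in deciles with medians of -0.12 and -0.19. The longest coding transcripts of Col6a1, Col6a2 and Col6a3 are 4100, 4653 and 10106 bases, and the trend was not fitted on that length. The other chains of this class, Col6a4, Col6a5 and Col6a6, had at most 71 counts in a library and log2 fold changes of -0.25, 0.18 and 0.39. Skeletal muscle markers, of a tissue whose matrix holds type VI, had 9 of 12 genes above 0 with a median of 0.29 (25% below 0, against 51.4% of all genes). Of the 12, 0 were called and 2 had an unadjusted p under 0.05 in edgeR (16.7%, against 18.2% of all genes). The 12 lay in length deciles 1 to 9, and 1 was below the median of its own decile. The part of muscle in the result was not tested beyond the covariate. Markers of tendon and periosteum had 4 of 7 above 0 with a median of 0.11 (42.9% below 0). They summed to 1049 to 1440 CPM in WT and 799 to 1709 CPM in KO.

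The 150 bases before the start of Col6a2 and Col6a3, whose products assemble with each other and which were among the chains with an unadjusted p under 0.05, are shown beside those of Col11a1 and Col11a2, which shared the library pattern of type I. RefSeq (GRCm38.p6) gave promoter windows for 34 of the 43 collagen genes, and windows that fall inside the annotated gene, such as that of Col6a1, are not shown. Capitals mark GGGCGG, the core of the GC box, CCAAT and TATAAA, each searched on either strand.
Col6a2, chr10:76623631-76623780, minus strand: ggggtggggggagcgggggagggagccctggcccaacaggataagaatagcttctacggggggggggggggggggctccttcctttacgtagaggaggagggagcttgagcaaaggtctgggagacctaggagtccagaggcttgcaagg
Col6a3, chr1:90843972-90844121, minus strand: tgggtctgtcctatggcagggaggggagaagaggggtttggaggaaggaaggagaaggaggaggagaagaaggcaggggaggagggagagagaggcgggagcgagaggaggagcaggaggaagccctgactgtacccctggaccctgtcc
Col11a1, chr3:114030390-114030539, plus strand: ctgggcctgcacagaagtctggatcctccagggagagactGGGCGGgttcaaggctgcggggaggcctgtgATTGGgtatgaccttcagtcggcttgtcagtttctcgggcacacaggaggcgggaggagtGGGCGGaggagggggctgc
Col11a2, chr17:34038988-34039137, plus strand: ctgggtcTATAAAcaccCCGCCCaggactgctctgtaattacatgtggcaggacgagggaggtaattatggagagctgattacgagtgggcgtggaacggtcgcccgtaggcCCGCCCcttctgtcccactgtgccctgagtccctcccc
These letters were found in neither of the type VI windows shown, while a second RefSeq window of Col6a2 (chr10:76623405-76623554, inside the annotated gene) held 3 matches of GGGCGG. The Col11a1 window held 2 matches of GGGCGG and 1 of CCAAT and the Col11a2 window 2 of GGGCGG and 1 of TATAAA. Over all 32851 windows of this length, 28.6% held GGGCGG, 24.5% CCAAT and 7.57% TATAAA, and of the 37 collagen windows 19, 8 and 4 did.

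**Figure D4:**
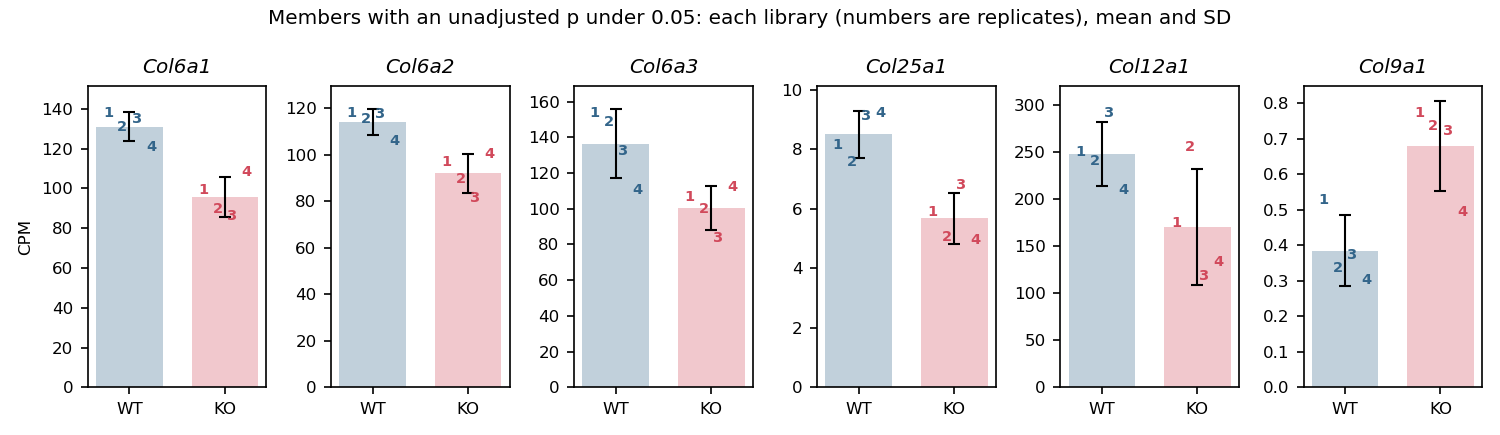
CPM of the 6 collagen chain genes with an unadjusted p under 0.05 in each library; digits are replicate numbers, bars are means and error bars SD over 4 mice. The WT and KO libraries are apart for Col6a1, Col6a2 and Col25a1 and overlap for Col6a3, Col12a1 and Col9a1.

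FACIT collagens were led per kilobase by Col16a1, Col12a1 and Col22a1. Col12a1, which links fibrils in periosteum, tendon and ligament, was at 250.4, 241, 291 and 209.7 CPM in WT replicates 1 to 4 and 175, 256, 118 and 134 CPM in KO replicates 1 to 4. KO replicate 2 lay among the WT libraries and the other 3 KO libraries below them, with means of 248 ± 33.7 CPM over the 4 WT mice and 171 ± 61.6 CPM over the 4 KO mice (± SD). Col12a1 had a log2 fold change of -0.54 ± 0.23 (SE) with an adjusted p of 0.259 by edgeR. Col16a1 was at 93.1, 129, 135 and 109 CPM in WT replicates 1 to 4 and 111, 112, 93.3 and 104 CPM in KO replicates 1 to 4, with overlapping groups. Col16a1 had a log2 fold change of -0.15 ± 0.14 (SE) with an adjusted p of 0.636 by edgeR. Col22a1, a chain of tissue junctions such as that of muscle with tendon, had a log2 fold change of -0.11 and overlapping groups. For Col9a1 the raw counts were 18, 11, 11 and 13 in the WT libraries and 24, 25, 23 and 13 in the KO libraries, in replicate order. The means were 0.384 ± 0.100 CPM over the 4 WT mice and 0.680 ± 0.127 CPM over the 4 KO mice (± SD). In CPM, 3 KO libraries lay above all WT libraries and KO replicate 4 below WT replicate 1. Col9a1 had a log2 fold change of 0.83 ± 0.31 (SE) with an adjusted p of 0.205 by edgeR. Its partners in type IX, Col9a2 and Col9a3, had log2 fold changes of -0.33 and 0.09. Col14a1 and Col20a1 were at 0.04 and -0.29.

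Of the membrane-spanning collagens, Col25a1 was separate between the groups. Col25a1, known for a role in the innervation of muscle, was at 8.13, 7.57, 9.11 and 9.20 CPM in WT replicates 1 to 4 and 5.88, 5.06, 6.81 and 4.97 CPM in KO replicates 1 to 4, so that the highest KO library lay below the lowest WT library. The means were 8.50 ± 0.789 CPM over the 4 WT mice and 5.68 ± 0.859 CPM over the 4 KO mice (± SD). Col25a1 had a log2 fold change of -0.58 ± 0.16 (SE) with an adjusted p of 0.107 by edgeR. Its log2 fold change was -0.40 (SE 0.17, edgeR adjusted p = 0.328) with the length and GC trend removed. Col13a1, found at cell contacts and at the junction of nerve and muscle, was at 36.3, 33.3, 27.2 and 35.2 CPM in WT replicates 1 to 4 and 27.1, 32.7, 28.0 and 21.7 CPM in KO replicates 1 to 4. Col13a1 had a log2 fold change of -0.27 ± 0.14 (SE) with an adjusted p of 0.357 by edgeR. Col23a1 had 62 to 105 counts per library and a log2 fold change of 0.21.

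The multiplexins Col15a1 and Col18a1 encode basement membrane proteoglycans with a cleavable C-terminal fragment, which for Col18a1 is endostatin. Col15a1 was at 45.8, 35.5, 30.8 and 29.7 CPM in WT replicates 1 to 4 and 31.1, 34.5, 27.0 and 31.4 CPM in KO replicates 1 to 4. Col15a1 had a log2 fold change of -0.19 ± 0.15 (SE) with an adjusted p of 0.540 by edgeR, and Col18a1 had a log2 fold change of -0.29 ± 0.14 (SE) with an adjusted p of 0.293 by edgeR. The groups overlapped for both. Col7a1, the chain of the fibrils that anchor epithelia, was at 54.9, 59.6, 69.2 and 42.4 CPM in WT replicates 1 to 4 and 34.0, 55.8, 58.5 and 57.4 CPM in KO replicates 1 to 4, with KO replicate 1 apart from the other KO libraries. Col7a1 had a log2 fold change of -0.14 ± 0.20 (SE) with an adjusted p of 0.769 by edgeR. Col26a1 and Col28a1 had 10 to 112 counts per library and log2 fold changes of 0.24 and 0.15.

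Ratios of chains within a library do not depend on the scaling of libraries, and 12 pairs with at least 20 counts of each chain in every library were put to an exact permutation test (two-sided), which cannot give a p below 0.0286. None passed after Benjamini-Hochberg adjustment over the 12 pairs, which would have needed at least 7 pairs at that smallest p. A ratio per length depends on the length used, and over all annotated exons Col1a2 to Col1a1 came to 0.451 in WT and 0.451 in KO and Col6a2 to Col6a1 to 0.459 in WT and 0.507 in KO, with the same p values. The ratio of Col1a2 to Col1a1 per transcript length was 0.946 ± 0.128 over the 4 WT mice and 0.946 ± 0.0382 over the 4 KO mice (± SD, p = 0.886 by exact permutation, 1 adjusted), and that of Col6a3 to Col6a1 was 0.421 ± 0.0432 over the 4 WT mice and 0.426 ± 0.0254 over the 4 KO mice (± SD, p = 0.886 by exact permutation, 1 adjusted). The ratio of Col6a2 to Col6a1 was 0.769 ± 0.0104 over the 4 WT mice and 0.849 ± 0.0299 over the 4 KO mice (± SD, p = 0.0286 by exact permutation, 0.343 adjusted). It was higher in all 4 KO libraries (0.816 to 0.884) than in all 4 WT libraries (0.754 to 0.778). The ratio of Col4a2 to Col4a1 was 0.926 ± 0.0275 over the 4 WT mice and 0.841 ± 0.0935 over the 4 KO mice (± SD, p = 0.114 by exact permutation, 0.457 adjusted). The ratio of Col3a1 to Col1a1 spread most, from 0.0844 in WT replicate 1 to 0.305 in WT replicate 3, and its difference between genotypes was within that spread. Its means were 0.168 ± 0.0954 over the 4 WT mice and 0.148 ± 0.0315 over the 4 KO mice (± SD, p = 0.971 by exact permutation, 1 adjusted).

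**Figure D5:**
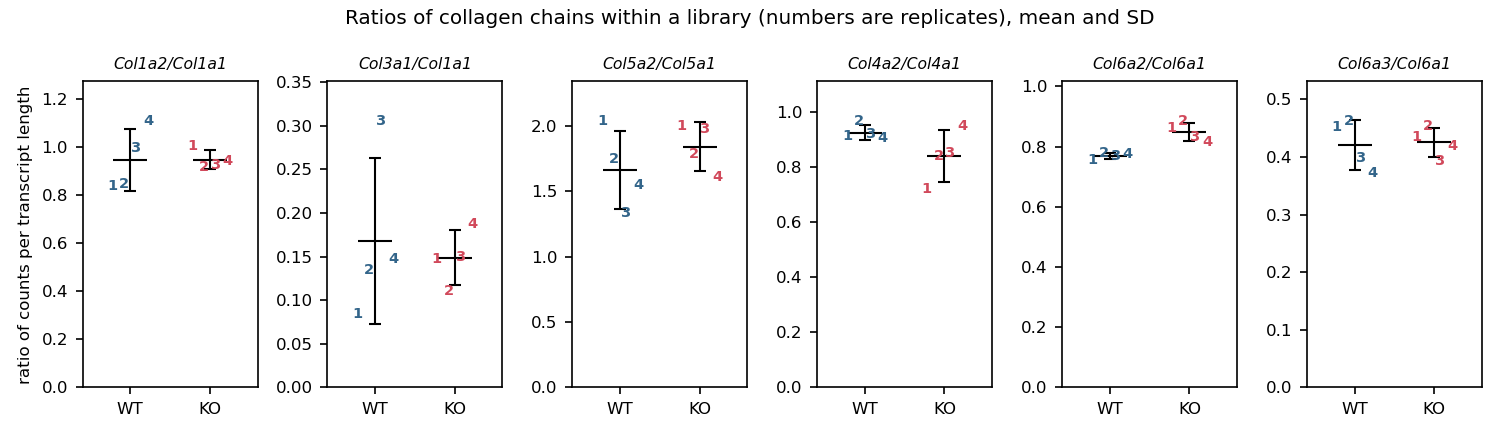
Ratio of counts per transcript length of 2 collagen chains in each library for 6 of the 12 pairs; digits are replicate numbers, ticks are means and error bars SD over 4 mice. Col6a2/Col6a1 is the pair drawn here whose WT and KO libraries are apart, and Col3a1/Col1a1 ranges from 0.0844 to 0.305 among WT libraries.

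Genes that fold, modify, cut, bind and break down collagen were counted beside the chains in the same edgeR fit. No gene of these 4 lists was called there. DESeq2, which called 6.45% of all genes, called P4ha3 (adjusted p = 0.0145) and Loxl4 (adjusted p = 0.0248). With limma-voom, which called 4.02% of all genes, Itga11 was called (adjusted p = 0.037). Of 22 genes for chain folding and modification 16 were below 0 in log2 fold change (median -0.11), and 2 (9.09%, against 18.2% of all genes) had an unadjusted p under 0.05, both lower in KO. For these lists too the share of all genes below 0 is 51.4%, and it rises with exon length. The 22 genes lay in length deciles 2 to 8, and 17 of them were below the median of their own decile. Such comparisons by decile do not take GC content into account. P4ha3, a catalytic subunit of prolyl 4-hydroxylase, was at 6.94 ± 1.44 CPM over the 4 WT mice and 3.76 ± 1.09 CPM over the 4 KO mice (± SD). P4ha3 had a log2 fold change of -0.88 ± 0.23 (SE) with an adjusted p of 0.106 by edgeR. Sec24d, a coat protein for export of procollagen from the endoplasmic reticulum, had a log2 fold change of -0.37, and P4hb, the shared subunit of prolyl 4-hydroxylase, one of 0.29. Of 12 tested genes for propeptide cleavage and crosslinking 11 were below 0 (median -0.19), and 1 in each direction had an unadjusted p under 0.05 (together 16.7%, against 18.2% of all genes). These 12 lay in length deciles 5 to 10, and 10 of them were below the median of their own decile. Loxl4, a lysyl oxidase that crosslinks collagen, was at 8.68 ± 3.24 CPM over the 4 WT mice and 4.66 ± 0.693 CPM over the 4 KO mice (± SD) with every KO library below every WT library. The gap was narrow, from 5.19 CPM in KO replicate 4 to 5.30 CPM in WT replicate 3. Loxl4 had a log2 fold change of -0.90 ± 0.26 (SE) with an adjusted p of 0.123 by edgeR, the lowest p of its list. Pcolce2, an enhancer of propeptide cleavage, and Loxl1 had log2 fold changes of 0.90 and -0.27.

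All 10 collagen receptor genes were below 0 in log2 fold change (median -0.19), and 3 had an unadjusted p under 0.05 (30%, against 18.2% of all genes). They lay in length deciles 6 to 10, where 52.4% to 78.8% of all genes were below 0, and 9 of the 10 were below the median of their own decile. Itga11, an integrin chain for fibrillar collagen in mesenchymal cells, was at 34.6 ± 3.94 CPM over the 4 WT mice and 25.7 ± 2.98 CPM over the 4 KO mice (± SD), again with separate groups. Itga11 had a log2 fold change of -0.43 ± 0.12 (SE) with an adjusted p of 0.127 by edgeR. The integrin chains Itga1 and Itga10 had log2 fold changes of -0.53 and -0.37. Genes for collagen breakdown had 4 of 6 above 0 with a median of 0.10 and no unadjusted p under 0.05, and 3 were below the median of their own length decile. Mmp2, a gelatinase, averaged 232 ± 13.8 CPM over the 4 WT mice and 197 ± 20.2 CPM over the 4 KO mice (± SD). Every KO library lay below every WT library, as for 5.78% of all genes, but narrowly (217.7 CPM in KO replicate 2, 218.6 CPM in WT replicate 4). The log2 fold change of Mmp2 was -0.24 ± 0.13 (SE) with an adjusted p of 0.365 by edgeR. The osteoclast proteases Mmp9 and Ctsk had log2 fold changes of 0.19 and 0.17.

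None of the 6 members on chromosome 1, the chromosome of Kcnj9, lay near the deleted gene. The nearest, Col6a3, was 81.5 Mb away. Exons of 13 members overlap those of another annotated gene, by at most 6.07% of their bases, and the strand setting of the counting is not given. No exon of Col6a1, Col6a2, Col6a3, Col25a1 or Col12a1 is among them.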

How the data were processed

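Gene counts of 4 WT and 4 Girk3-/- femoral shaft libraries were used as the authors deposited them, as raw counts per Ensembl gene ID. Per the submitters' processing notes, bcl2fastq 2.17, STAR 2.5.2b, featureCounts and Subread 1.5.2 were used with mm10; for the annotation release, the strand setting and multi-mapping reads, nothing is given in the sources used here. Nothing in the labels says how animals were paired or prepared together.

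Counts were scaled by TMM, filtered with filterByExpr and tested with edgeR 4.0.16 (quasi-likelihood test, Benjamini-Hochberg over 17450 genes, threshold 0.05) in R 4.3.3. Alternatives were DESeq2 1.42.0, limma 3.58.1 (voom), other scalings and filters, a replicate block, loess trends (span 0.3) with exon length and GC removed, a muscle marker covariate, and libraries left out. The plan named counts per exon length, whereas levels and ratios are given per longest coding transcript, with the length over all exons as an alternative. The choice between these lengths was not settled before the data were seen. Library totals were 30087749 to 36553713. On simulated counts of 17196 genes, the KO against WT test recovered 56.8% of 2-fold and 88.5% of 4-fold changes, with 6.71% false calls. These counts were drawn gene by gene, without the length trend or the muscle differences of the real libraries. The tested chains had log2 fold changes from -0.61 to 0.83, all under 2-fold, so the power for changes of their size was not measured.

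The collagen members, the gene lists and the tests were chosen with earlier results of these data known. Values in every library are given for members with an unadjusted p under 0.05 and for leading members of each class; Col2a1 and Col24a1 were added after their values were seen. Symbols, lengths and coordinates are from GENCODE M21.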

Additional observations from a re-analysis of the deposited data

Results flagged for a closer look

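In 5 of 108 groups of 4 libraries, the highest or lowest library stood far from the other 3, and chance alone marks about 1 in 20 such groups. Col24a1 was at 43.4 CPM in KO replicate 4 against 22.3 to 23.6 CPM in the other KO libraries. Col4a5 was at 3.64 CPM in KO replicate 4, above the other KO libraries, and the ratio of Col4a5 to Col4a1 per length there was 0.0315. Col7a1 was at 34.0 CPM in KO replicate 1, the lowest of its group. The ratio of Col8a2 to Col8a1 per length was 0.574 in WT replicate 4, below the other WT libraries.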

How the results depend on the processing

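The count of collagen chains called was 0 in the edgeR test of all 8 libraries, in every fit that left out 1 library and with the replicate block, and it became 2 with DESeq2, 3 with limma-voom, 2 with the muscle covariate and 3 without WT replicate 4 and KO replicate 4. The count over all genes was 2, and became 994, 701, 819 and 458 in those 4 fits, 71 with no filter, 1 with the replicate block, 4 with the exon length trend removed, 1 with block, length and GC together, and 2 to 4 on leaving out 1 library (4 without KO replicate 4). The members' median log2 fold change of -0.21 became -0.00027 with length and GC removed (0.033 over all genes). With the block as well it was 0.015 (0.029 over all genes), and it ranged from -0.27 to -0.13 on leaving out 1 library. Library totals without TMM moved the median of all genes to -0.11 and that of the members to -0.30.

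Log2 fold changes turned from negative to positive for 5 chains with the exon length trend removed, Col1a2 (0.0049), Col7a1 (0.023), Col27a1 (0.15), Col22a1 (0.056) and Col4a3 (0.10). With length and GC removed they did for 10, Col1a2 (0.11), Col5a2 (0.0054), Col4a1 (0.013), Col16a1 (0.080), Col7a1 (0.16), Col5a3 (0.023), Col27a1 (0.28), Col22a1 (0.11), Col4a3 (0.13) and Col4a4 (0.027). With the block as well they did for 12, Col1a1 (0.027), Col1a2 (0.12), Col5a2 (0.0056), Col4a1 (0.022), Col16a1 (0.092), Col15a1 (0.0079), Col7a1 (0.16), Col5a3 (0.030), Col27a1 (0.24), Col22a1 (0.11), Col4a3 (0.15) and Col4a4 (0.025). Col4a5 was at -0.082 with limma-voom, -0.18 with the muscle covariate and -0.29 without both libraries, where the log2 ratio differences of Col5a2/Col1a2 and Col6a3/Col6a1 were -0.061 and -0.032. The cause was not tested.

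Among the chains and pairs described library by library, leaving out 1 library at a time turned signs, with log2 fold changes of -0.44 to 0.012 for Col1a1, -0.21 to 0.38 for Col4a5, -0.032 to 0.29 for Col8a1, -0.26 to 0.018 for Col7a1, and log2 ratio differences of -0.047 to 0.087 for Col1a2/Col1a1, -0.072 to 0.066 for Col5a2/Col1a2, -0.054 to 0.10 for Col11a2/Col11a1, -0.32 to 0.30 for Col3a1/Col1a1, -0.32 to 0.047 for Col5a1/Col1a1, -0.038 to 0.066 for Col6a3/Col6a1. Genes with few counts, such as Col9a1, are limited by depth. For the pairing, deviations of WT and KO libraries with the same replicate number correlated at -0.19, -0.17, -0.25 and -0.57, so the numbers were not used to pair mice.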
